A study of Mus musculus with 24 samples.

Results

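The complement genes described here are C2, C3, C4b, Cfb, Cfd, C1ra, C1s1, Serping1 and Masp1, and they were taken from the count table by gene symbol. They are 9 of its 27179 genes, and each symbol matched 1 row. RNA of whole visceral fat, labelled visceral or perigonadal adipose tissue, was sequenced from male and female mice aged 27 to 33 weeks. The labels give 3 genotypes. TbetFoxp3cre mice, called Tbet KO here, lack the transcription factor T-bet in cells that express Cre recombinase from Foxp3, the gene of the lineage factor of regulatory T cells. PpargFoxp3cre mice, called Pparg KO here, lack the nuclear receptor Pparg in the same cells. Controls are labelled Foxp3cre (control), so every group carried the Cre, and the deletion was not directed at the adipocytes, stromal cells or macrophages of the tissue. Each of the 6 groups of genotype and sex has 4 libraries, 2 from each of 2 batches named in the titles. Replicates 1 and 3 are batch 1 and replicates 2 and 4 are batch 2. The titles number samples 1 and 2 of a group within each batch, and it is not stated whether a number marks the same mouse in both batches, or that each library is a separate animal. The p-values therefore speak only of the variation among these libraries.

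Complement is a cascade of plasma proteins that tags microbes and dying cells and attracts phagocytes. In the classical pathway the serine proteases C1r and C1s, bound to the recognition protein C1q, cleave C4 and C2, whose fragments form an enzyme that cleaves C3. In the alternative pathway factor B, encoded by Cfb, binds cleaved C3 and is cut by factor D, encoded by Cfd, to form a second enzyme of the same kind. The lectin pathway enters through sugar-binding proteins and the Masp proteases. The C1 inhibitor, encoded by Serping1, blocks C1r, C1s and the Masp proteases. Most plasma complement comes from the liver, but fat is the known main source of factor D, which was first described in adipocytes under the name adipsin.

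Several of these genes lie beside near copies or overlapping genes, which bears on what a read count can tell. Positions are from RefSeq on build GRCm38. On chromosome 17, Cfb (34856374 to 34862514) and C2 (34862602 to 34882100) lie 87 bases apart on the minus strand, and a GENCODE readthrough gene, Gm20547, overlaps both. C4b (17, 34728139 to 34743902) has a near copy, C4a (17, 34809092 to 34823460), also known as sex-limited protein, which RefSeq lists as a transcribed pseudogene. C1ra (chromosome 6, 124512621 to 124523440, plus strand) and C1s1 (6, 124530344 to 124542392, minus strand) are neighbours with the near copies C1rb and C1s2. C3 lies on chromosome 17 (57203967 to 57228136), Cfd on 10 (79890853 to 79892655), Serping1 on 2 (84765360 to 84775444) and Masp1 on 16 (23451785 to 23521240). An antisense gene, Gm16567, overlaps C1s1, and whether counting used strand is not given in the sources used here.

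The 3 pairs of copies are shown because their counts are compared below. Over the aligned GENCODE M21 transcripts, C4b and C4a are identical at 96.1% of 5367 bases, with the longest identical run 433 bases. C1ra and C1rb are identical at 98.0% of 2428 bases, with a run of 757 bases, and C1s1 and C1s2 at 96.0% of 2642 bases, with a run of 229 bases. Below is, for each pair, the 60-base window of coding exon with the most differences, in the direction of transcription. Capitals mark the differing bases: 13 between C4b and C4a (exon 21 of each, chr17:34735430-34735489 and chr17:34816086-34816145, minus strand), 11 between C1ra and C1rb (exon 11 of each, chr6:124522654-124522713 and chr6:124580700-124580759, plus strand) and 17 between C1s1 and C1s2 (exons 12 and 11, chr6:124531486-124531545 and chr6:124625708-124625767, minus strand).
C4b: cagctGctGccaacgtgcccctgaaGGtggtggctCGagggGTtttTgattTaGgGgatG
C4a: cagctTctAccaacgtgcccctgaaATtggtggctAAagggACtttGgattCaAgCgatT
C1ra: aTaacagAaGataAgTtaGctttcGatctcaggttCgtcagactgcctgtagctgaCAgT
C1rb: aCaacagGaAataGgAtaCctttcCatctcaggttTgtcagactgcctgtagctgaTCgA
C1s1: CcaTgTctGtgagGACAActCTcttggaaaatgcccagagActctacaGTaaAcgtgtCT
C1s2: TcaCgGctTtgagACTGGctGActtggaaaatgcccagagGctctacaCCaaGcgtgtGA
Reads outside such windows can fit both copies, so a split of counts between the members of a pair is uncertain.

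RefSeq promoter windows (GRCm38.p6) matched 4 of the 9 genes: C1ra, C1s1, C3 and Cfd. The 250 bases before the start of C1ra (chr6:124512371-124512620, plus strand) and C3 (chr17:57228137-57228386, minus strand) are printed because both genes were lower in males of every genotype, as C1s1 was. Capitals mark matches to TTGCNNAA, a form of the C/EBP motif, searched on both strands.
C1ra: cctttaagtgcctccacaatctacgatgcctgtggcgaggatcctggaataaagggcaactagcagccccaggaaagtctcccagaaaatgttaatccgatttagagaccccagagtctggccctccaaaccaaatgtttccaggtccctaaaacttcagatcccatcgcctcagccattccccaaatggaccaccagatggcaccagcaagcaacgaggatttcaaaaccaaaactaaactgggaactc
C3: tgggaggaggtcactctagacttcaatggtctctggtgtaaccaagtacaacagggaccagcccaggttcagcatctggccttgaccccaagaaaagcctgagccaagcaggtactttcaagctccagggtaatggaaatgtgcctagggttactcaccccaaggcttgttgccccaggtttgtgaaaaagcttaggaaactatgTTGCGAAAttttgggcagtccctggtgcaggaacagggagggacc
The match in C3 spans bases -45 to -38 and that in C1s1 bases -242 to -235, counted back from the start. Of all 32851 windows of this length, 9.56% hold this motif. The other motifs searched had no match in the 4 windows. On both strands these were TTCNNNGAA (GAS, in 7.02% of all windows), the interferon-stimulated response element (2.98%), GGGANNTCC (NF-kB, 3.59%), the estrogen response element (0.0639%), the androgen response element (0.0304%) and the direct repeat bound by Pparg (0.0335%), and on the sense strand TATAAA (7.59%).

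The libraries held 8345575 to 31022845 counts, the smallest in Tbet KO female replicate 2. Adipocyte genes marked the tissue: the summed level of 11 adipocyte markers was 6519 to 54688 CPM (counts scaled to a common library total, as edgeR gives them). Control female replicate 1 stood apart, with the lowest adipocyte sum, 6519 CPM, and the highest sum of 9 epithelial markers, 972 CPM, 19.6 times the median library. Its source name also gives batch 2 where its title gives batch 1. Called results of the main edgeR fit that use it are therefore also given without it, per gene or per list. Batch moved 51.7% of the 17824 genes tested, and among the complement genes the batch 2 libraries were higher for C3 (log2 difference 1.34), C4b (0.86), Cfb (0.57) and C1s1 (0.33), so batch is a term in the model and values within each batch are given beside the pooled ones. Pparg, Tbx21 and Foxp3 were called in none of the 11 comparisons, and bulk levels do not check a deletion confined to few cells.

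Per length, Cfd was by far the most abundant of the 9 genes. Its median over the 24 libraries was 6235 FPKM, from 1916 to 11798, the fourth highest of the 15764 genes with a deposited FPKM. C3 followed at 320 FPKM (78.8 to 1041), Serping1 at 305 (164 to 477) and C4b at 256 (29.1 to 622). Cfb had a median of 173 FPKM, C1s1 of 122, C2 of 63.9 and C1ra of 44.6. The ranges of C3, Serping1 and C4b overlap broadly, so their order is not firm. Masp1 was the exception, with a median of 0.503 FPKM and a highest value of 2.22. Of 7 hepatocyte markers, the fibrinogen gene Fgb had 0 counts in 23 of 24 libraries, Apoa1 at most 11, Ttr at most 24 and Apoh at most 25 counts. The other markers had more, with 81 to 875 counts for Alb, 27 to 241 for Serpina1a and 0 to 98 for Ahsg. The deposited FPKM were scaled between libraries beyond their totals, since 5 libraries share the same highest value and 15.7% of genes have an identical value in at least 2 libraries, so levels between groups are given in CPM.

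**Figure D1:**
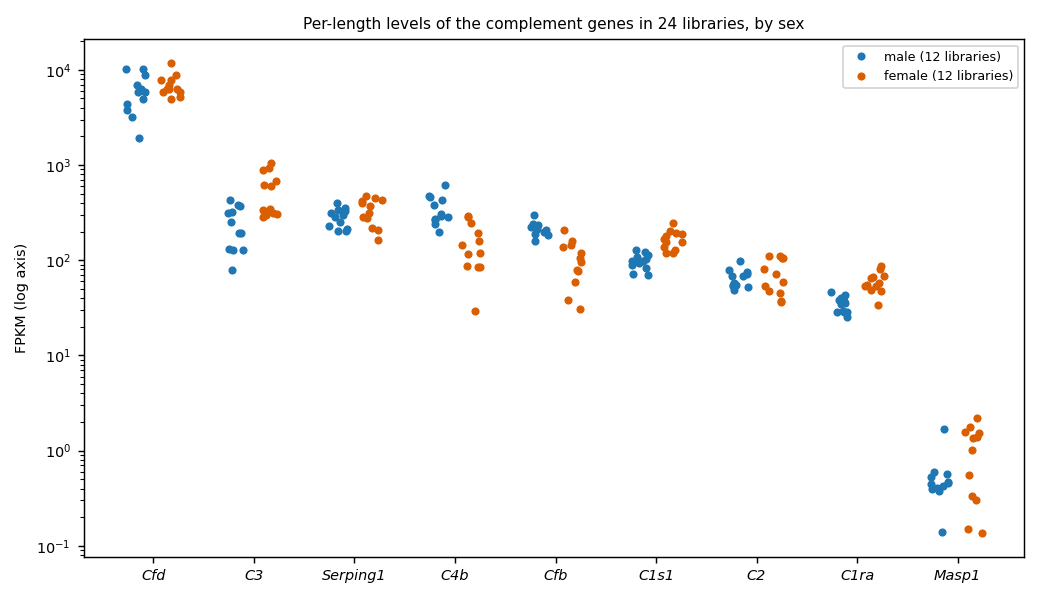
Deposited FPKM (log axis) of the 9 complement genes, ordered by their median, with 12 male libraries left of 12 female libraries for each gene. Cfd lies above the other 8 genes in every library, and the points of C4b and Cfb lie mostly higher in males, with some overlap of the sexes.

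The question of sex was posed within each genotype. In control fat the complement genes split in 2 directions. C4b and Cfb were 4.33-fold and 4.25-fold higher in males than in females, while C3, C1s1 and C1ra were lower in males, by a log2 change of -0.94, -0.65 and -0.55. The same 3 genes were lower in males of both KO genotypes, and C4b was also higher in Pparg KO males. In edgeR's quasi-likelihood test, 5 of the 9 genes were called between control males and control females at an adjusted p under 0.05, where 27.2% of all genes tested were called. Between Tbet KO males and females 3 of 9 were called (all genes: 9.31%), and between Pparg KO males and females 4 of 9 (all genes: 8.77%). The male and female libraries did not overlap for 3 of the 9 genes in Tbet KO fat (all genes: 12.4%), 1 in Pparg KO fat (all genes: 9.06%) and 2 in control fat (all genes: 15.7%). The median log2 fold change of the 9 genes was -0.39 in Tbet KO, -0.25 in Pparg KO and -0.42 in control fat, beside 0.03, 0.01 and -0.04 over all genes tested. Perigonadal fat lies by the epididymis in males and by the uterus and ovary in females, so sex and depot cannot be told apart. In bulk tissue, fewer cells of a type and less RNA per cell also cannot be told apart.

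The question of genotype was posed within each sex. In Tbet KO females C4b and Serping1 were higher than in control females, by 2.44-fold and 1.84-fold, and 2 of 9 genes were called where 1.22% of all genes were. The count was 0 without the filter on low counts, 0 with a replicate block and 0 with only these 2 groups in the fit. Libraries of Tbet KO and control females did not overlap for 2 of the 9 genes, Cfb and Serping1 (all genes: 4.97%), and those of Pparg KO and control females for Serping1 (all genes: 2.44%). In Pparg KO females 0 of 9 were called by edgeR (all genes: 0.0168%), while 4 had an unadjusted p under 0.05, all higher (all genes, in either direction: 11.9%), and DESeq2 called 2, Cfb and Serping1. Over all genes this comparison had 3 calls by edgeR and 0 to 413 in the other fits, DESeq2 among them. In males 0 of 9 were called for the Tbet KO (all genes by edgeR: 0.00561%) and 0 of 9 for the Pparg KO (all genes by edgeR: 0%) by edgeR, DESeq2 and limma, and the genes with an unadjusted p under 0.05 numbered 0 (all genes: 4.38%) and 2 (all genes: 2.55%). Over all genes the other fits in males made 0 to 25 calls for the Tbet KO and 0 to 6 for the Pparg KO. Tbet KO against Pparg KO gave 0 calls among the 9 by any of these tools in either sex (all genes by edgeR: 0%), with 0 genes at an unadjusted p under 0.05 in females (all genes: 4.8%) and 2 in males (all genes: 4.24%). Over all genes the other fits of Tbet KO against Pparg KO made 0 to 126 calls in females and 0 to 49 in males. Both KO genotypes were compared with the same control libraries, so these results are not independent of each other.

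**Figure D2:**
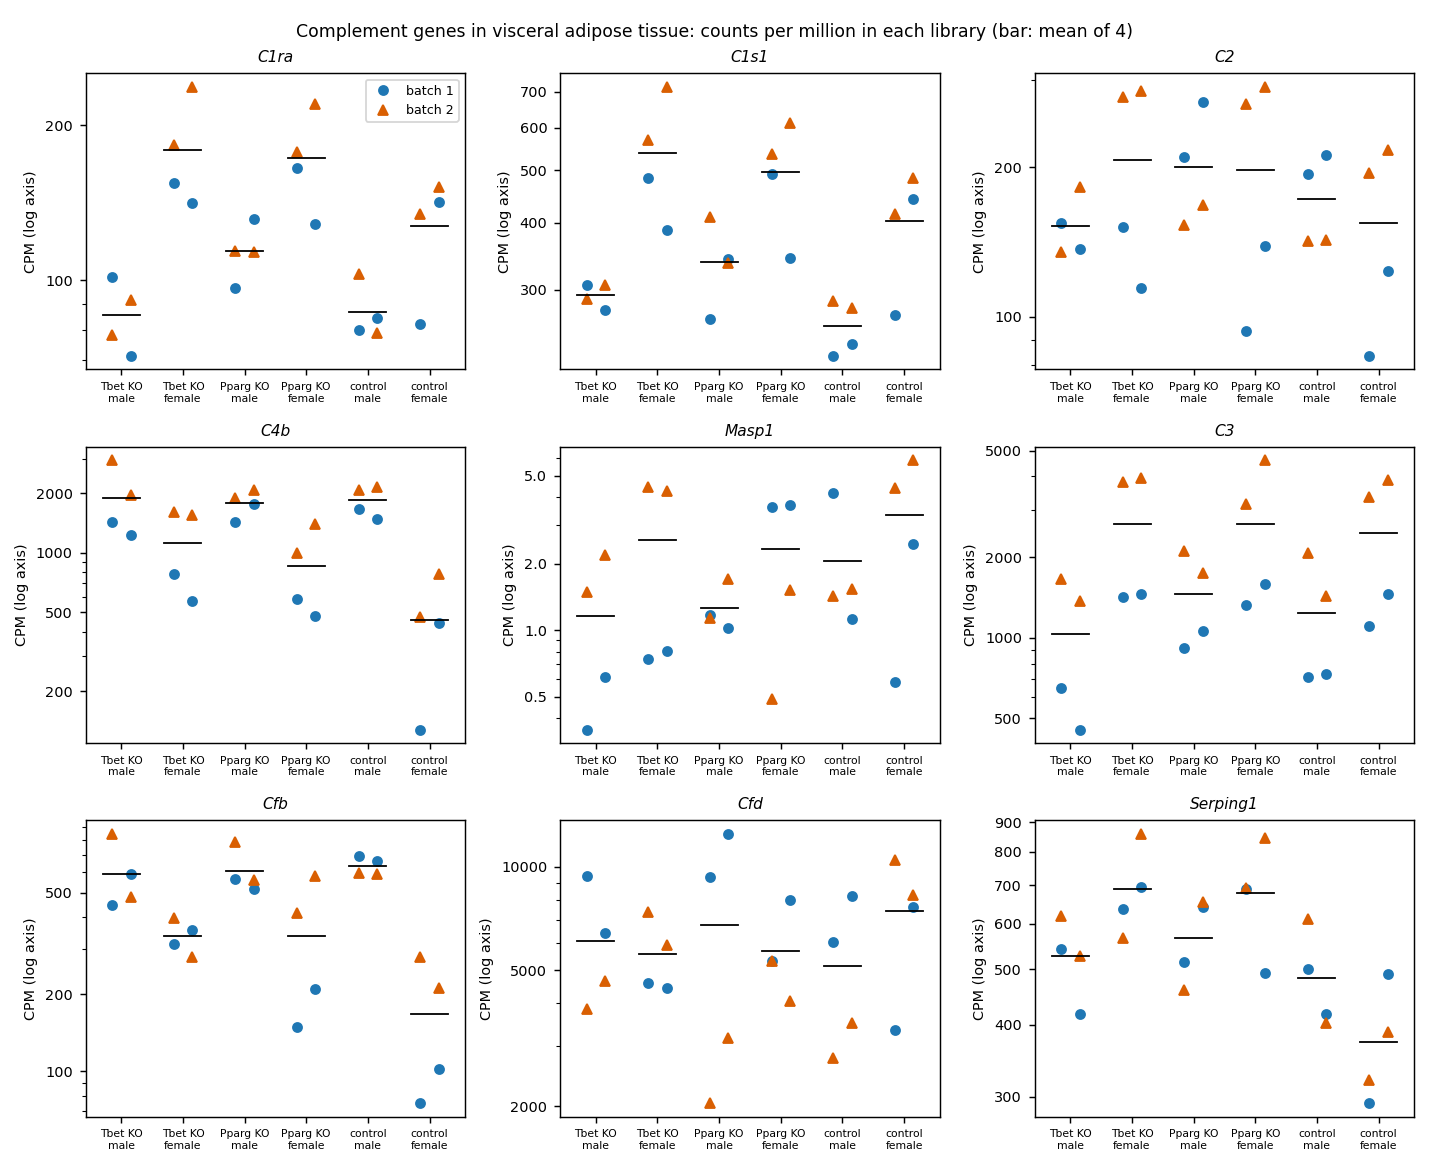
CPM (log axis) of each complement gene in every library, by group, with circles for batch 1, triangles for batch 2 and a bar at the mean of 4. C4b lies at 1483 CPM or above in every control male library and at 783 CPM or below in every control female library, while for C3 the sexes separate only within a batch.

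**Figure D3:**
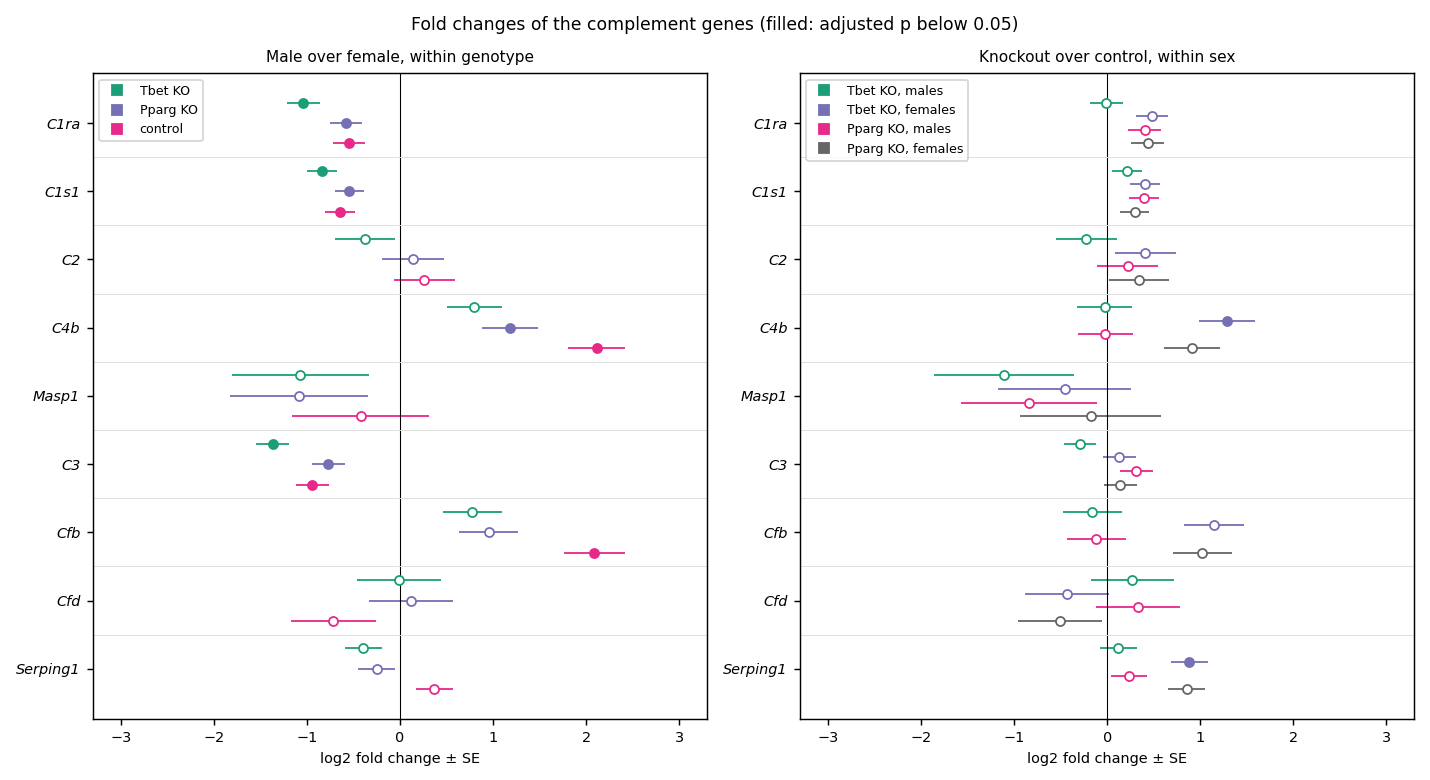
Log2 fold changes ± SE of the complement genes from edgeR, male over female within genotype (left) and KO over control within sex (right); filled points have an adjusted p below 0.05. C4b and Cfb lie on the male side and C3, C1ra and C1s1 on the female side in all 3 genotypes, and the 2 filled points on the right are C4b and Serping1 in Tbet KO females.

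C1ra, which encodes the protease C1r that activates C1s, was lower in males in each genotype. Tbet KO males had 101, 78.4, 71.3 and 91.7 CPM in replicates 1 to 4, against 155, 183, 141 and 238 CPM in Tbet KO females. Every Tbet KO male library lay below every Tbet KO female library, and the log2 fold change was -1.04 (SE 0.18, adjusted p = 0.00124). Pparg KO males had 96.6, 114, 132 and 114 CPM, against 165, 178, 129 and 220 CPM in Pparg KO females. These groups overlapped at 1 male library, and the log2 fold change was -0.58 (SE 0.17, adjusted p = 0.0424). Control males had 80.0, 103, 84.6 and 79.0 CPM, against 82.4, 135, 142 and 152 CPM in control females. The lowest control female value was that of replicate 1, the library that stood apart, and the log2 fold change was -0.55 (SE 0.17, adjusted p = 0.0252). Without that library it was -0.69 (adjusted p = 0.0069).

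Within batch 1 the log2 fold change of C1ra, male over female, was -0.81 in Tbet KO, -0.40 in Pparg KO and -0.48 in control fat, and within batch 2 it was -1.30, -0.80 and -0.65 in the same order. It was thus negative in all 6 combinations, and males lay below females without overlap in 4 of them. Each combination holds only 2 male and 2 female libraries. The share of all genes that separate in this way was not computed, so such counts describe the libraries only. The control call was lost in each batch alone (adjusted p = 0.214 in batch 1 and 0.0629 in batch 2), with only the control groups in the fit (0.0935), without control female replicate 3 (0.108) or 4 (0.0626) and without control male replicate 1 (0.0603) or 4 (0.0790). The Pparg KO call was lost without Pparg KO female replicate 1 (0.117), 2 (0.0748) or 4 (0.0990), without Pparg KO male replicate 1 (0.136), 2 (0.0931) or 4 (0.0916), with the replicate number as a block in place of batch (0.0586), without the filter on low counts (0.0562), with the source name batch (0.0672), in batch 1 alone (0.385) and batch 2 alone (0.0994), and with only these 2 groups in the fit (0.0862). The Tbet KO call held without any of its 8 libraries in turn and was lost in batch 1 alone (0.178).

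C1s1 encodes C1s, the protease that cleaves C4 and C2, and it ran in parallel. Tbet KO males had 306, 288, 276 and 306 CPM, against 484, 569, 387 and 715 CPM in Tbet KO females, without overlap (log2 fold change -0.84, SE 0.16, adjusted p = 0.00278). Pparg KO males had 265, 410, 342 and 336 CPM, against 493, 537, 344 and 611 CPM in Pparg KO females (log2 fold change -0.54, SE 0.16, adjusted p = 0.0386). Control males had 226, 286, 238 and 277 CPM, against 269, 415, 443 and 483 CPM in control females (log2 fold change -0.65, SE 0.16, adjusted p = 0.00638). In the last 2 genotypes the sexes overlapped when batches were pooled, but within each batch of each genotype both male libraries lay below both female libraries, 6 of 6 combinations. The share of all genes with this separation was not computed. The control call held without each of its libraries in turn, with adjusted p from 0.00232 to 0.0353, and the log2 fold change was -0.76 without control female replicate 1. It was lost in batch 1 alone (0.10) and with only the control groups in the fit (0.0583), and the Tbet KO call in batch 1 alone (0.275). In Pparg KO fat the call was lost without female replicate 1 (0.133), 2 (0.0741) or 4 (0.0822), without male replicate 1 (0.140), 3 (0.0546) or 4 (0.0902), with the replicate block (0.0566), without the filter (0.0568), with the source name batch (0.0751), in batch 1 alone (0.274) and batch 2 alone (0.130), and with only these 2 groups in the fit (0.105). The ratio of C1s1 to C1ra counts stayed between 2.60 and 3.87 in all 24 libraries, while C1s1 itself ranged 3.16-fold.

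No KO comparison called C1ra or C1s1. In Pparg KO males against control males the log2 fold changes were 0.40 (SE 0.17, unadjusted p = 0.0324) for C1ra and 0.40 (SE 0.16, unadjusted p = 0.0218) for C1s1, with an adjusted p of 1 for each. In Tbet KO females against control females they were 0.48 (adjusted p = 0.163) and 0.41 (adjusted p = 0.194), and in Pparg KO females 0.43 (adjusted p = 0.340) and 0.29 (adjusted p = 0.479).

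C4b encodes C4, the substrate of C1s and a part of the enzyme that cleaves C3. It had the widest range among the 9 genes, 23.0-fold from the lowest to the highest library. That lowest library was control female replicate 1, at 128 CPM, and the next lowest had 443 CPM. By the SD of log2 CPM with batch means removed, Masp1 varied more, at 1.0 against 0.91 for C4b. Control males had 1661, 2076, 1483 and 2154 CPM, against 128, 476, 443 and 783 CPM in control females. The groups did not overlap, and the log2 fold change was 2.11 (SE 0.31, adjusted p = 0.000149). It was 2.42 within batch 1 and 1.75 within batch 2, and 1.84 (adjusted p = 0.000115) without control female replicate 1, the source of the lowest value. This call held in all 18 alternatives and in all of them males were higher.

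In Pparg KO fat C4b reached 1440, 1891, 1765 and 2080 CPM in males, against 583, 998, 477 and 1394 CPM in females, again without overlap (log2 fold change 1.18, SE 0.30, adjusted p = 0.0189). Here the call was lost without female replicate 1 (adjusted p = 0.0634) or 3 (0.0635) without male replicate 1 (0.0580) or 3 (0.0700), and with the source name batch (0.0598). The value was 1.57 within batch 1 (adjusted p = 0.0705) and 0.74 within batch 2 (adjusted p = 0.252), so neither batch alone gave a call. Tbet KO males had 1439, 2942, 1228 and 1966 CPM, against 778, 1610, 569 and 1554 CPM in Tbet KO females, which overlapped, and the log2 fold change of 0.80 (SE 0.30, adjusted p = 0.0959) did not pass. DESeq2 called it (adjusted p = 0.0353), as did the edgeR fit with only these 2 groups (0.0212) and that without the libraries rich in epithelial transcripts (0.0268). Within each batch of each genotype both male libraries exceeded both female libraries, 6 of 6 combinations, a count for which no share over all genes was computed.

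The 3 male groups had nearly equal C4b, with means of 1894 ± 765 CPM in Tbet KO, 1794 ± 269 CPM in Pparg KO and 1844 ± 323 CPM in control males (SD, n = 4 each). The females were spread out, with means of 1128 ± 532 CPM in Tbet KO, 863 ± 420 CPM in Pparg KO and 457 ± 268 CPM in control females. Tbet KO over control females differed by 1.29 on the log2 scale (SE 0.30, adjusted p = 0.0413), with overlapping groups, and the value was 1.24 within batch 1 (adjusted p = 0.175) and 1.33 within batch 2 (adjusted p = 0.0890), a call in neither batch alone. The call was also lost with the replicate block (0.0610), without the filter (0.0559), with the source name batch (0.0737), with only these 2 groups in the fit (0.193), without Tbet KO female replicate 1 (0.111), 2 (0.0865), 3 (0.0804) or 4 (0.0813), and without control female replicate 1 (0.0519, log2 fold change 1.03), 2 (0.0757) or 4 (0.0569). Pparg KO over control females gave 0.91 (SE 0.30, adjusted p = 0.298). In males the log2 fold changes were -0.03 (SE 0.29) for Tbet KO and -0.02 (SE 0.29) for Pparg KO over control. The difference between the effects in the 2 sexes, males minus females, was -1.32 for Tbet KO (SE 0.42, adjusted p = 0.316) and -0.93 for Pparg KO (SE 0.42, adjusted p = 0.805), so a difference of effect between the sexes was not shown. Of the 9 genes, 0 were called by edgeR for either difference (all genes: 0.00561% and 0%), with 3 at an unadjusted p under 0.05 for each (all genes: 11.5% and 6.14%) and 0 by DESeq2 or limma.

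C4a, the near copy of C4b, had 20.2 to 53.2 times fewer counts in each library and moved in parallel, at 70.1 ± 36.5 CPM in control males against 18.8 ± 14.6 CPM in control females (log2 fold change 2.06, adjusted p = 5.09e-05, and 1.85 without control female replicate 1, adjusted p = 7.85e-05). The ratio of C4b to C4a was set apart by batch and not by group. It was 20.2 to 25.4 in the 12 batch 2 libraries (median 22.3) and 31.9 to 53.2 in the 12 batch 1 libraries (median 41.5), without overlap. C1ra to C1rb showed the same order with a smaller gap, with medians of 4.07 in batch 2 and 5.53 in batch 1 and again no overlap. C1s1 to C1s2 did overlap, at 45.4 to 56.6 in batch 2 (median 51.3) and 40.0 to 130 in batch 1 (median 73.6), where control female replicate 1 was the single batch 1 library below the highest batch 2 value. The part of batch in the split within these pairs was not tested further.

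**Figure D4:**
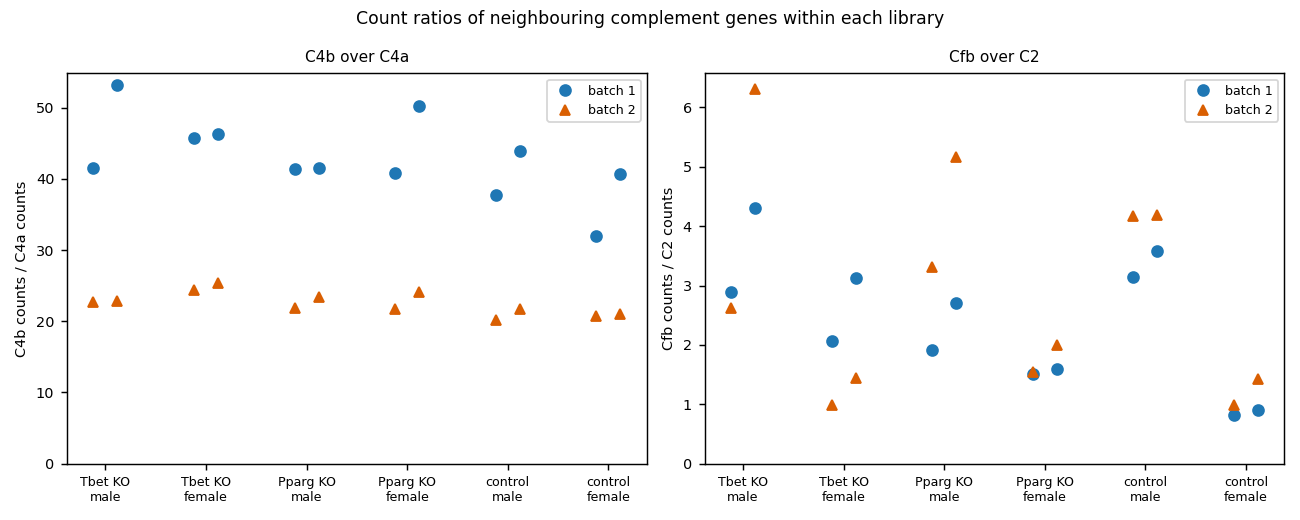
Ratio of C4b to C4a counts (left) and of Cfb to C2 counts (right) in each library, by group, with circles for batch 1 and triangles for batch 2. The left panel divides by batch in every group, at 20.2 to 25.4 in batch 2 and 31.9 to 53.2 in batch 1, and the right panel divides by sex in control fat.

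C2, whose product joins C4 in the classical enzyme, had no call in any comparison, and the pooled values hide opposite patterns in the 2 batches. In batch 1 the 6 male libraries of the 3 genotypes had 137 to 270 CPM (median 202), against 83.4 to 151 CPM (median 119) in the 6 female libraries. In batch 2 the order was turned round, with 135 to 183 CPM (median 148) in males, against 195 to 290 CPM (median 272) in females, without overlap. For control fat the log2 fold change, male over female, was 0.93 within batch 1 (adjusted p = 0.0241) and -0.53 within batch 2 (adjusted p = 0.0627), and the pooled value was 0.26 (SE 0.33, adjusted p = 0.586). For Pparg KO fat the values were 1.02 within batch 1 (adjusted p = 0.0375), -0.79 within batch 2 (adjusted p = 0.0664) and 0.14 pooled, and for Tbet KO fat 0.10 (adjusted p = 0.869), -0.81 (adjusted p = 0.0187) and -0.38. The difference between batches itself was not tested.

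Masp1, a protease of the lectin pathway, had few reads and varied widely within groups. It had 7 to 156 counts per library, and its levels were 0.355 to 2.18 CPM in Tbet KO males, against 0.743 to 4.43 CPM in Tbet KO females, 1.02 to 1.70 CPM in Pparg KO males, against 0.488 to 3.68 CPM in Pparg KO females, and 1.12 to 4.17 CPM in control males, against 0.580 to 5.87 CPM in control females. All groups overlapped and no comparison called it. The log2 fold changes between the sexes were -1.07 in Tbet KO, -1.09 in Pparg KO and -0.42 in control fat (SE 0.74 each), so differences of this size lay within the spread between libraries.

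C3 encodes the protein on which all 3 pathways converge. Tbet KO males had 647, 1657, 453 and 1376 CPM, against 1422, 3815, 1450 and 3950 CPM in Tbet KO females. Pparg KO males had 915, 2114, 1062 and 1747 CPM, against 1320, 3147, 1592 and 4601 CPM in Pparg KO females, and control males had 710, 2068, 729 and 1428 CPM, against 1103, 3366, 1453 and 3890 CPM in control females. Batch 2 libraries lay above batch 1 libraries of the same group throughout, and the pooled groups overlap. Within each batch of each genotype both male libraries lay below both female libraries, 6 of 6 combinations, and over the genotypes the 6 batch 1 males had 453 to 1062 CPM against 1103 to 1592 CPM in the 6 females, and the 6 batch 2 males 1376 to 2114 CPM against 3147 to 4601 CPM. How many of all genes separate in this way was not computed.

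The log2 fold change of C3, male over female, was -1.37 in Tbet KO (SE 0.18, adjusted p = 0.00014), -0.77 in Pparg KO (SE 0.18, adjusted p = 0.0106) and -0.94 in control fat (SE 0.18, adjusted p = 0.00101). Within batch 1 it was -1.41, -0.59 and -0.86 in this order, and within batch 2 -1.35, -1.0 and -1.05. The Tbet KO and control calls held in every alternative tried, and without control female replicate 1 the control value was -1.03. The Pparg KO call held without each of its 8 libraries in turn, and was lost without the libraries rich in epithelial transcripts (adjusted p = 0.0593), with only these 2 groups in the fit (0.0773), with the source name batch (0.0912), in batch 1 alone (0.136) and in batch 2 alone (0.126). Between genotypes C3 was not called. The nearest was Tbet KO over Pparg KO males, with a log2 fold change of -0.61 (SE 0.18, unadjusted p = 0.00253, adjusted p = 0.974). Tbet KO over control females gave 0.13 (SE 0.17).

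Cfb encodes factor B, the C2 counterpart of the alternative pathway. Control males had 694, 595, 667 and 593 CPM, against 75.0, 279, 102 and 212 CPM in control females. The groups did not overlap and the log2 fold change was 2.09 (SE 0.33, adjusted p = 0.000296). It was 2.90 within batch 1 (adjusted p = 0.000379), 1.28 within batch 2 (adjusted p = 0.0454) and 1.87 (adjusted p = 0.00107) without control female replicate 1, and the call held in all 18 alternatives. The neighbouring genes Cfb and C2 did not move together: the ratio of their counts was 3.15 to 4.19 in control males and 0.827 to 1.43 in control females.

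In the KO genotypes the log2 fold change of Cfb between the sexes was smaller than in control fat. By edgeR that difference was -1.31 for Tbet KO (adjusted p = 0.336) and -1.14 for Pparg KO (SE 0.45, adjusted p = 0.805), called for neither. Tbet KO males had 447, 849, 589 and 479 CPM, against 314, 397, 357 and 281 CPM in Tbet KO females, without overlap but not called (log2 fold change 0.78, SE 0.32, adjusted p = 0.128). With only these 2 groups in the fit it passed (adjusted p = 0.0332). Pparg KO males had 566, 790, 518 and 558 CPM, against 149, 415, 210 and 580 CPM in Pparg KO females (log2 fold change 0.95, SE 0.32, adjusted p = 0.0670), and this passed in DESeq2 (0.0217), limma (0.0389), batch 1 alone (0.00568) and without Pparg KO female replicate 4 (0.0250).

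Between genotypes, Cfb averaged 337 ± 50.5 CPM in Tbet KO females and 339 ± 197 CPM in Pparg KO females, against 167 ± 95.2 CPM in control females (SD, n = 4 each). All 4 Tbet KO female libraries exceeded all 4 control female libraries, the closest being 281 and 279 CPM, yet the log2 fold change of 1.15 (SE 0.32, adjusted p = 0.0861) did not pass, and without control female replicate 1 it was 0.94 (adjusted p = 0.197). The effect was uneven across batches, 1.93 within batch 1 (adjusted p = 0.00594) and 0.47 within batch 2 (adjusted p = 0.554), and DESeq2 (adjusted p = 0.00837) and limma (adjusted p = 0.0288) called the pooled comparison. Pparg KO over control females gave 1.02 (SE 0.32, adjusted p = 0.298), and DESeq2 called it (adjusted p = 0.0456). In males the log2 fold changes were -0.16 for Tbet KO (SE 0.31) and -0.12 for Pparg KO (SE 0.31). The difference of the Tbet KO effect between the sexes was -1.31 (SE 0.45, adjusted p = 0.336) pooled and -2.31 (adjusted p = 0.0206) within batch 1 alone, where it was the 1 gene of the 9 called. The batch 1 values rest on 2 control female libraries, 1 of them replicate 1, and no batch 1 fit without it is given. With libraries left out of the pooled fit in turn, the difference was -1.55 to -1.09, never called (lowest adjusted p = 0.231). Over all genes this difference had 1 call in the main fit and 0 to 271 in the other fits, batch 1 alone among them.

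Cfd, the adipsin gene, was the most abundant complement gene and had no call in any comparison. Its values by batch resembled those of C2. In batch 1 the 6 male libraries had 6039 to 12505 CPM (median 8768), against 3349 to 8018 CPM (median 4955) in females, and in batch 2 they had 2042 to 4657 CPM (median 3335), against 4058 to 10485 CPM (median 6651) in females. In control fat the log2 fold change, male over female, was 0.34 within batch 1 (adjusted p = 0.561), -1.58 within batch 2 (adjusted p = 0.0189) and -0.72 pooled (SE 0.46, adjusted p = 0.255). In Tbet KO and Pparg KO fat the pooled values were -0.01 and 0.12 (SE 0.45 each). The summed adipocyte markers were 36472 to 54688 CPM in batch 1 males, against 6519 to 35325 CPM in batch 1 females, and 30570 to 47655 CPM in batch 2 males, against 37169 to 51265 CPM in batch 2 females. Their part in the values of Cfd and C2 was not tested.

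Serping1, the gene of the C1 inhibitor, was the steadiest, with a 2.94-fold range over the 24 libraries, and it differed by genotype in females. Tbet KO females had 637, 567, 696 and 860 CPM, against 292, 321, 490 and 389 CPM in control females. The groups did not overlap and the log2 fold change was 0.88 (SE 0.20, adjusted p = 0.0387), with 0.78 within batch 1 (adjusted p = 0.165) and 1.01 within batch 2 (adjusted p = 0.175). Pparg KO females had 689, 692, 492 and 845 CPM, of which the lowest was just above the highest control female library, and the log2 fold change of 0.85 (SE 0.20, adjusted p = 0.185) was of the same size but passed only in DESeq2 (adjusted p = 0.002).

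The Tbet KO call of Serping1 was lost in each batch alone, with the replicate block (adjusted p = 0.0579), without the filter (0.0504), with only these 2 groups in the fit (0.145), without the libraries rich in epithelial transcripts (0.0785), without Tbet KO female replicate 1 (0.10), 3 (0.119) or 4 (0.0901), and without control female replicate 1 (0.0894, log2 fold change 0.80), 2 (0.0743) or 4 (0.0823). In males the group means were 526 ± 83.1 CPM in Tbet KO, 567 ± 95.1 CPM in Pparg KO and 483 ± 96.1 CPM in control males (SD, n = 4 each), with log2 fold changes of 0.12 for Tbet KO and 0.23 for Pparg KO (SE 0.20 each). The difference of effects, males minus females, was -0.76 for Tbet KO (SE 0.28, adjusted p = 0.355) and -0.62 for Pparg KO (SE 0.28, adjusted p = 0.805). Between the sexes the gene was not called, at -0.39 in Tbet KO, -0.25 in Pparg KO and 0.37 in control fat.

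Other measures were read in the same comparison of Tbet KO and control females. Of 20 genes known to be induced by interferon gamma, all outside the complement genes, 6 were higher and 0 lower, where 1.22% of all genes were called (median log2 fold change 1.04, all genes -0.04). Among them were the guanylate-binding protein genes Gbp4 (log2 fold change 1.89, adjusted p = 0.0196) and Gbp5 (1.36, adjusted p = 0.0247), the ubiquitin-like gene Ubd (4.30, adjusted p = 0.0358) and the peptide transporter gene Tap1 (1.25, adjusted p = 0.0413). Without control female replicate 1 the list had 1 call, Gbp4 (1.85, adjusted p = 0.0430), where 0.722% of all genes were called, and the median of the list was 0.95. Gbp5 then had 1.32 (adjusted p = 0.0549), Ubd 4.33 (0.0719) and Tap1 1.24 (0.0834). The summed level of the 20 genes was 1406, 3329, 1387 and 1167 CPM in Tbet KO female replicates 1 to 4, against 550 to 1330 CPM in control females. Serping1 was highest in replicate 4, where this sum was lowest, and lowest in replicate 2, where it was highest. In Pparg KO over control females 0 of the 20 were called (median 0.48, all genes: 0.0168%). In control males over control females 1 was higher and 1 lower (median 0.21, all genes: 27.2%). Summed adipocyte markers were 34705 to 50295 CPM in Tbet KO females, against 6519 to 51265 CPM in control females, and summed macrophage markers were 994 to 1597 CPM, against 297 to 1030 CPM. No macrophage, adipocyte or stromal marker was called in that comparison. Their part in the C4b and Serping1 values was not tested.

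Marker levels also moved with the sex differences, where 27.2% of all genes were called in control, 9.31% in Tbet KO and 8.77% in Pparg KO fat. Macrophage markers were higher in control males, 6 of 9 (summed 1178 to 1552 CPM in males, against 297 to 1030 CPM in females), and stromal progenitor markers were mostly lower, 4 of 10 lower and 1 higher (3297 to 3866 CPM in control males, against 2985 to 6483 CPM in control females). In Tbet KO fat 3 of the 10 stromal markers were lower in males (3239 to 3613 CPM, against 4165 to 6791 CPM in Tbet KO females) and 0 of the 9 macrophage markers were called (941 to 1265 CPM in males, against 994 to 1597 CPM in females). In Pparg KO fat 2 of 10 stromal markers were lower (3317 to 4140 CPM in males, against 4299 to 6375 CPM in females) and 1 of 9 macrophage markers was higher (1486 to 1962 CPM in males, against 606 to 2131 CPM in females). Endothelial markers were higher in control males, 5 of 8 (summed 1431 to 2895 CPM, against 546 to 1234 CPM in control females), and 0 of 8 were called in either KO genotype (1428 to 2208 CPM in Tbet KO males, against 1187 to 1653 CPM in Tbet KO females, and 1351 to 2232 CPM in Pparg KO males, against 1104 to 1548 CPM in Pparg KO females). Of 11 adipocyte markers, 3 were higher in control males and 1, the leptin gene Lep, in males of each KO genotype. These adipocyte shares, and that of the macrophage markers in Pparg KO fat, are near the shares of all genes called. The stromal genes Dcn and Lum were lower in males in all 3 genotypes, as C3, C1ra and C1s1 were. Mesothelial markers were also lower, 2 of 8 in control, 3 of 8 in Tbet KO and 2 of 8 in Pparg KO fat, with Wt1 and Bnc1 in each. In control fat that share is near the share of all genes called. Without control female replicate 1, where 23.8% of all genes were called in control fat, 3 of 9 macrophage and 4 of 8 endothelial markers were higher, 4 of 10 stromal and 2 of 8 mesothelial markers lower, and of the adipocyte markers 2 higher and 2 lower. The part of these cell types in the complement differences was not tested.

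The rest of the pathway was read from 45 further complement genes, of which 37 passed the filter on low counts. Between control males and females 13 were higher and 4 lower (all genes: 27.2%), between Pparg KO males and females 5 and 2 (all genes: 8.77%), and between Tbet KO males and females 3 and 5 (all genes: 9.31%). Without control female replicate 1 the control counts were 11 and 4 (all genes: 23.8%), and the 15 were among the 17 before. The calls lost were C1qa (log2 fold change 0.76, adjusted p = 0.0599) and C5ar1 (1.29, adjusted p = 0.0508). No KO comparison called any of them by edgeR, although 14 had an unadjusted p under 0.05 in Tbet KO females (all genes: 17.3%) and 16 in Pparg KO females (all genes: 11.9%), beside 6 in Tbet KO males (all genes: 4.38%) and 3 in Pparg KO males (all genes: 2.55%). The median log2 fold change of the 37 genes was 0.62 in Tbet KO over control females, where the median of all genes was -0.04, and 0.52 without control female replicate 1.

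C7, which takes part in the pore that complement inserts into membranes, was far higher in males of every genotype. It averaged 230 ± 89.1 CPM in Tbet KO males, against 12.7 ± 3.56 CPM in Tbet KO females, 215 ± 143 CPM in Pparg KO males, against 10.6 ± 6.09 CPM in Pparg KO females, and 194 ± 96.3 CPM in control males, against 5.74 ± 3.37 CPM in control females. The log2 fold changes of C7 were 4.13 (adjusted p = 3.02e-05), 4.52 (adjusted p = 1.74e-05) and 5.09 (adjusted p = 3.94e-06), and in control fat 4.94 (adjusted p = 2.15e-05) without control female replicate 1. C6, which joins the pore before C7, was called in control fat, with a log2 fold change of 1.17 (adjusted p = 0.0237, and 0.83 without that library, adjusted p = 0.0315), and had 0.51 in Tbet KO and 0.13 in Pparg KO fat without a call. Of the classical genes, C1qa, C1qb and C1qc, which encode the chains of C1q and are made mainly by macrophages, were higher in control males by 0.97, 1.32 and 1.06 on the log2 scale, and in the KO genotypes their values ranged from -0.42 to 0.52 without a call. C1rb and C1s2, the near copies of C1ra and C1s1, were lower in control males (-0.51 and -1.05) and in Tbet KO males (-1.07 and -1.27).

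Of the complement receptors, in control males 6 of 8 were higher (all genes: 27.2%, and 5 of 8 without control female replicate 1): C3ar1 and C5ar1, receptors of the C3 and C5 fragments, the integrin chains Itgam, Itgax and Itgb2, and Vsig4, a receptor of tissue macrophages, with log2 fold changes from 1.5 for C3ar1 to 2.96 for Itgax. In Pparg KO males C3ar1 (0.95), Itgax (1.92) and Itgb2 (1.44) were called, 3 of 8 (all genes: 8.77%), and in Tbet KO males 0 of 8 (all genes: 9.31%). Among the fluid phase regulators, Clu, which encodes clusterin, a secreted chaperone that binds terminal complement proteins, averaged 161 ± 48.1 CPM in control males, against 206 ± 87.1 CPM in control females, and its log2 fold changes of -0.47 in Tbet KO, -0.30 in Pparg KO and -0.36 in control fat did not pass. Cd55, a membrane regulator that speeds the decay of the C3-cleaving enzymes, was lower in males of all 3 genotypes, by -0.70 in Tbet KO, -0.67 in Pparg KO and -0.94 in control fat. Colec12, a scavenger receptor with a lectin domain, was lower in males of all 3 genotypes (-0.96, -0.74 and -0.75). Cd59a, which blocks the membrane pore and was the most abundant membrane regulator, was higher in control males (1.33, adjusted p = 0.00774, and 1.08 without control female replicate 1, adjusted p = 0.0257), and Csmd1 was lower in Tbet KO males (-1.42, adjusted p = 0.0246). C4bp, a regulator of C4, was called higher in Tbet KO males, but replicate 4, a library rich in epithelial transcripts, held 844 counts, the other 3 Tbet KO males 0 to 16 and the Tbet KO females 0 to 1.

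**Figure D5:**
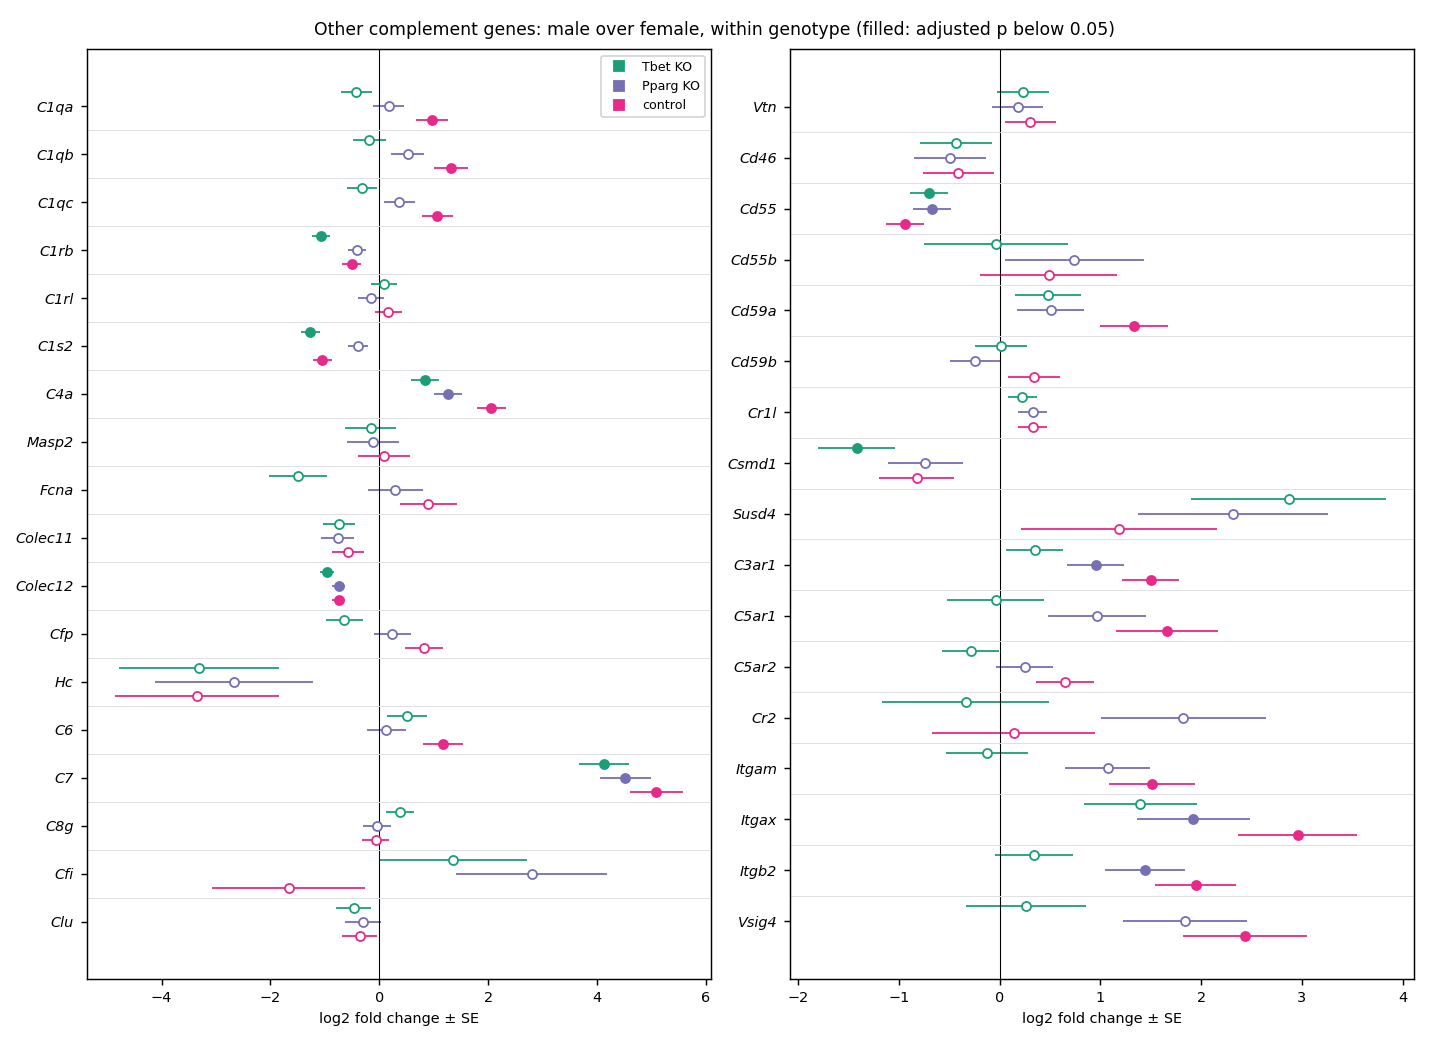
Log2 fold changes ± SE, male over female, for 35 further complement genes in Tbet KO, Pparg KO and control fat; filled points have an adjusted p below 0.05, and 2 tested genes with 3 counts or fewer in every library of a group are not drawn. C7 lies at 4.13 to 5.09 in all 3 genotypes, and the C1q genes and receptors are filled mostly in control fat.

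Over the 24 libraries, with gene means and batch means removed, the genes most like each complement gene were found by the smallest root mean square (RMS) difference in log2 CPM. These values describe likeness in libraries that share depth and tissue make-up. C4b was nearest to C4a, its near copy, at 0.15, and next to Adap2 and Aldh1a3, at 0.35 each, beside an SD of 0.91 for C4b itself. Cfb, with an SD of 0.85, was nearest to Sparc at 0.18, then Anxa2 at 0.26 and Sod3 at 0.27. C1ra was nearest to C1rb at 0.12 and C1s1 at 0.14, then Plxdc2 at 0.18, and C1s1 to C1ra at 0.14, Rnase4 at 0.15 and C1rb at 0.17. C3 was nearest to Plxdc2 at 0.24, Eif2s3x at 0.27 and C1s2 at 0.27. Serping1 was nearest to Vwa1, Nsg1 and Gpsm3, at 0.22 to 0.26 with an SD of 0.39. C2 was nearest to Spg21, Smoc1 and Rab40b, at 0.28 to 0.30 with an SD of 0.45, and Cfd to Acadsb, Pfkfb1 and Sqor, at 0.36 to 0.38 with an SD of 0.60. Masp1 had no close match, its nearest gene Ncam2 differing by 0.67, followed by Moap1 at 0.74 and Plac9a at 0.75, against an SD of 1.0.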

How the data were processed

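Whole-tissue RNA, purified with the RNeasy lipid kit, was sequenced from TruSeq RNA libraries, per the labels' protocols. The authors deposited raw counts per gene, and featureCounts, limma and builds GRCm38 and mm10 are named in the submitters' processing notes. The authors also deposited log2 FPKM values for 15764 genes, used here for levels per length. The sources used here do not give the aligner, the annotation or the read strand.

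Counts were filtered with filterByExpr (17824 genes left), scaled by TMM and tested in R 4.3.3 with edgeR 4.0.16, whose robust quasi-likelihood fit held all 24 libraries, 6 groups and batch, with 17 residual degrees of freedom and a common biological coefficient of variation of 0.404. Adjusted p-values are Benjamini-Hochberg over all genes tested, in each of 11 comparisons, and genes were called under 0.05. Log2 CPM used a prior count of 2. On counts simulated for Tbet KO over control females over 17552 genes, 33 of 50 genes raised and 30 of 50 genes lowered by 1 on the log2 scale were called. The simulated counts held no batch effect and no other group difference, so these shares need not hold for the real libraries. DESeq2 1.42.0, limma 3.58.1 on log2 FPKM, another scaling, no filter, a replicate block, single batches, only the groups compared and leaving out libraries were tried. The other lists were also refitted without control female replicate 1, a choice made after seeing the data. Intervals were not computed, and depth covers counting error only, as reads are not independent molecules.

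The replicate number marks a shared batch in the titles. Same-numbered libraries correlated between -0.177 and 0.699 in their deviations from group means, and between -0.28 and 0.438 once batch means were removed. Named genes are the 9 complement genes, called and most abundant genes of the other complement lists, 4 interferon gamma induced genes and the 3 genes most like each complement gene. Dcn, Lum, Wt1 and Bnc1 were named after their values were seen. The genes and lists were chosen with earlier results of these data known. One further complement regulator is not reported here.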

Additional observations from a re-analysis of the deposited data

Results flagged for a closer look

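Masp1 in control male replicate 1 lay far above the other 3 control male libraries, at 4.17 CPM against a next highest value of 1.54 CPM. Of the 54 combinations of gene and group examined for such a gap, this was the 1 found, and chance gives about 1 in 20.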

How the results depend on the processing

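The 14 called results kept their direction in every refit, of which 180 passed the threshold and 72 fell short. Over 38 of the uncalled ones, picked from results given in the text, 18 refits passed and 21 turned the direction. The other uncalled results were refitted too but are not in these counts. Among those left out are the KO over control changes of C4b and Cfb in males. The number of complement genes called in Tbet KO over control females, 2, was 0 without the filter on low counts, 0 with a replicate block replacing batch, 1 with the batch that the source name gives for control female replicate 1, 1 in batch 1 alone, 0 in batch 2 alone, 0 with only the groups compared, 1 without the libraries rich in epithelial transcripts, and 0 to 2 when libraries were left out in turn. In Pparg KO over control females it was 2 with DESeq2. Between Pparg KO males and females, 4 became 2 without the filter, 2 with the replicate block, 0 with the source name batch, 2 in batch 1 alone, 0 in batch 2 alone, 1 with only the groups compared and 1 to 3 when libraries were left out in turn. Between Tbet KO males and females, 3 became 1 in batch 1 alone and 5 with only the groups compared. Between control males and females, 5 became 3 with only the groups compared. Smaller changes of these counts are not listed. Among them are 5 in another fit between Pparg KO males and females, and 4 between control males and females with a library left out. The difference of the Tbet KO effect between the sexes had 1 call in batch 1 alone. The block changed no other call of a complement gene beyond these.

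Uncalled results outside the 38 counted above were not looked at for their direction. Within the results counted, directions turned only for uncalled log2 fold changes, all male over female. For C2 they were 0.10 in Tbet KO in batch 1 alone, and in batch 2 alone -0.79 in Pparg KO and -0.53 in control fat, with -0.11 to 0.33 in Pparg KO when libraries were left out in turn. For Cfd in Tbet KO they were 0.0097 with the replicate block, 0.78 in batch 1 alone, 0.091 with only the groups compared and -0.22 to 0.26 when libraries were left out in turn. For Cfd in Pparg KO they were -0.85 in batch 2 alone, -0.070 with only the groups compared, -0.17 with limma and -0.26 to 0.42 when libraries were left out in turn, and in control fat 0.34 in batch 1 alone. For Masp1 they were 0.48 in Pparg KO in batch 2 alone and 0.75 in control fat in batch 1 alone. The cause was not tested. Fits on 1 batch or on 2 groups hold fewer libraries.

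The count of all genes called moved more. It was 218 in Tbet KO over control females, 66 to 1272 in other fits and 33 to 131 with a library left out. It was 3 in Pparg KO over control females and 0 to 413 in other fits, 1659 between Tbet KO males and females and 433 to 2799 in other fits, 1564 between Pparg KO males and females and 53 to 2804 in other fits, and 4848 between control males and females and 1307 to 6006 in other fits. In comparisons with 0 or 1 call the other fits reached 271 at most. Masp1 had 7 to 156 counts per library, so counting error is largest for it among the 9 genes.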
